A study of Homo sapiens with 8 samples.

Results

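Expression of 7 genes of cellular lipid storage was followed across 4 treatments: the lipid droplet coat genes PLIN2 and PLIN3, the fatty acid binding protein genes FABP3, FABP4 and FABP5, the fatty acid uptake gene CD36, and DGAT1 of triglyceride synthesis. They were taken as every probe set whose array annotation gives one of these 7 symbols alone. That gave 11 probe sets for 7 genes, of 22283 probe sets and 11963 named genes in all. A probe set is a group of short probes on an Affymetrix human expression array that reads 1 transcript or several alike ones. Of the 11, 5 (both of PLIN2 and those of PLIN3, FABP5 and DGAT1) were bright enough to be tested, and the other 6 (all those of FABP3, FABP4 and CD36) were not.

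The cells were a human non-small cell lung adenocarcinoma line, which the labels do not name. After a night in culture they received rosiglitazone together with carboplatin, rosiglitazone at 1 µM, carboplatin at 10 µM, or control medium, and all were taken at 24 h. The doses in the combination are not restated in the labels. The series design calls the control DMSO/control and the treatment protocol calls it control media, so whether solvent was added is not settled. Rosiglitazone is a ligand that activates the nuclear receptor PPARγ, and carboplatin is a platinum drug that crosslinks DNA. Each of the 4 groups had 2 arrays, which the labels number but do not tie to separate cultures. The p-values therefore rest on the spread within array pairs alone, and that spread may be technical.

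Cells store surplus fatty acids as triglyceride in lipid droplets, which are covered by proteins of the perilipin family. Fatty acids enter with the help of the membrane protein CD36, are carried in the cytosol by small fatty acid binding proteins, and are built into triglyceride by a chain of acyltransferases that ends with DGAT1 or DGAT2. Several of these genes, PLIN2, FABP4 and CD36 among them, are well known targets of PPAR receptors in fat cells, macrophages or liver. PLIN2 is the coat protein of droplets in most cells that are not fat cells, and PLIN3 is a related coat protein found both in the cytosol and on small droplets.

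The promoter sequences of the 2 perilipin genes are shown because the array signal of PLIN2 differed between treatments while no difference was detected for PLIN3. The RefSeq promoter table held 4 of the 7 genes (PLIN2, PLIN3, FABP3 and CD36). Each sequence is the 250 bases before the annotated start of the gene, read 5′ to 3′ on the gene's own strand from build GRCh38.p14. PLIN2 lies at chr9:19127493-19127742 and PLIN3 at chr19:4867668-4867917, both on the minus strand. Capitals mark matches, on either strand, to 5 motifs. The core site of nuclear receptors was searched as AGGTCA. The spaced repeat that PPAR binds with its partner RXR was searched as AGGTCANAGGTCA, and each match to it overlaps matches to the core site. An E-box was searched as CACGTG. A GC box was searched as GGGCGG. The box that sets the start in many promoters was searched as TATAAA (the TATA box).
PLIN2: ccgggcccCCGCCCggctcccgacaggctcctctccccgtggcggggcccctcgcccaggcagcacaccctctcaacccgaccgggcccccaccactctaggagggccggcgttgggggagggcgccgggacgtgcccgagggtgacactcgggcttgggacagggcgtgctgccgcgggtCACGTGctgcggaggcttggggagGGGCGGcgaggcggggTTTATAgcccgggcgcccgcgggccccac
PLIN3: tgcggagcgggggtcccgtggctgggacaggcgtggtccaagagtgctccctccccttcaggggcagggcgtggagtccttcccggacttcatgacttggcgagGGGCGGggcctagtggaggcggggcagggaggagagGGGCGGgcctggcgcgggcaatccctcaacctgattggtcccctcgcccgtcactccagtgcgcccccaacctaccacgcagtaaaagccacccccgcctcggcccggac
The PLIN2 window held 1 CACGTG starting 69 bases before the annotated start, 2 GGGCGG matches, and TATAAA on the opposite strand 29 bases before the start. The PLIN3 window held 2 GGGCGG matches and no CACGTG or TATAAA. Neither window held AGGTCA or its spaced repeat, and this says only that those letters are not in these 250 bases. Of 35116 promoter windows of the same length, 6.34% held CACGTG, 42.6% GGGCGG, 10.7% TATAAA, 12.1% AGGTCA and 0.0171% the exact spaced repeat. The windows were 78.0% G and C for PLIN2 and 70.8% for PLIN3. Whether any of these motifs bears on the array signals was not tested.

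Values below are the deposited linear signal or the quantile normalized log2(signal + 16), as named at each. Only the summed marker signals are normalized values taken back to the linear scale. Adding 16 sets a floor of 4 on the log2 scale and understates the changes of dim probe sets. Differences are on that log2 scale, each ± its limma standard error (SE), and a call means a Benjamini-Hochberg adjusted p below 0.05 over 13338 tested probe sets. Array brightness differed, with median deposited signals of 37.2 and 52.2 with the combination, 46.4 and 54.3 under rosiglitazone alone, 37.6 and 44.6 under carboplatin alone and 45.8 and 36.2 in control. Markers of epithelium and lung adenocarcinoma were mixed. The log2 value of the keratin gene KRT18 lay between 12.14 and 12.51 on the 8 arrays and that of KRT7 between 11.29 and 12.07. CDH1 ran from 6.13 to 7.11. Other genes of that list were dim, NKX2-1 running from 4.25 to 5.40 and EPCAM from 4.24 to 5.28. Of the epithelial and lung adenocarcinoma markers 7 of 9 on the array lay above the filter on dim probe sets, against 2 of 6 adipocyte, 0 of 6 macrophage, 0 of 5 endothelial and 2 of 6 fibroblast markers. The adipocyte genes below the filter were ADIPOQ (at most 5.01), LEP (at most 4.24), PLIN1 (at most 4.60) and LPL (at most 5.33). Those above it were CIDEC (6.16 to 6.66) and LIPE (5.17 to 5.96). In the macrophage list PTPRC reached at most 4.96, but CSF1R, AIF1 and CD14 reached 5.76, 5.62 and 5.52 on their highest array.

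PLIN2 rose with rosiglitazone, both alone and on top of carboplatin, and no effect of carboplatin on it was detected. The bright PLIN2 probe set, 209122_at, had deposited signals of 1609 and 2026 with the combination, 1888 and 2452 under rosiglitazone alone, 428 and 533 under carboplatin alone and 632 and 508 in control. The 4 arrays that received rosiglitazone all lay above the 4 that did not, with a wide gap, also before quantile normalization. In bulk RNA such as this, a change in the share of cells that express a gene and a change in RNA per cell cannot be told apart. On the log2 scale the same arrays stood at 10.93 and 10.67 with the combination, 10.90 and 10.92 under rosiglitazone alone, 9.11 and 9.05 under carboplatin alone and 9.21 and 9.28 in control. The order of the group means was rosiglitazone (10.91 ± 0.01, SD, n = 2), combination (10.80 ± 0.18), control (9.24 ± 0.05) and carboplatin (9.08 ± 0.04). In that order only the step between the combination and control was called.

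Rosiglitazone against control raised PLIN2 by 1.67 ± 0.12, a fold of 3.18 (95% interval 1.41 to 1.93 on the log2 scale, adjusted p = 0.000246). Combination against carboplatin raised it by 1.71 ± 0.12, a fold of 3.28 (adjusted p = 0.000184), and combination against control by 1.56 ± 0.12, a fold of 2.94 (adjusted p = 0.000509). In each of these 3 comparisons PLIN2 had the smallest p-value of all 13338 probe sets. By size it was the 7th largest rise of rosiglitazone against control, the 2nd of combination against carboplatin and the 8th of combination against control. Combination against control shares its arrays with the other comparisons, so these are not separate tests of the gene. As the mean of both rosiglitazone comparisons, 4 arrays against 4, the main effect was 1.69 ± 0.08 (adjusted p = 5.17e-06), again the smallest p-value and the 3rd largest rise.

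No effect of carboplatin on PLIN2 was detected. Carboplatin against control differed by -0.16 ± 0.12 (95% interval -0.42 to 0.10, adjusted p = 0.93), and combination against rosiglitazone by -0.11 ± 0.12 (95% interval -0.37 to 0.15, adjusted p = 1). The interaction asks whether rosiglitazone acted differently when carboplatin was present. For PLIN2 it was 0.05 ± 0.17, with a 95% interval of -0.32 to 0.41, so a difference between the 2 rosiglitazone effects larger than about 0.41 lies outside the interval. No probe set passed for the interaction.

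A second PLIN2 probe set, 215895_x_at, was far dimmer and moved the same way without passing. Its suffix marks probes that can read other transcripts too. Its deposited signals were 36.8 and 43.4 with the combination, 62.6 and 35.2 under rosiglitazone alone, 23.1 and 6.87 under carboplatin alone and 38.9 and 7.98 in control. The brighter control array lay above the lower array of both rosiglitazone-treated groups, so the groups overlap. Rosiglitazone against control gave 0.68 ± 0.42 (adjusted p = 0.61) and combination against carboplatin 0.84 ± 0.42 (adjusted p = 0.82). Single arrays moved both: the first was 0.14 without control 2 and 1.22 without control 1, and the second 0.41 without carboplatin 2 and 1.28 without carboplatin 1. Without rosiglitazone 1 the probe set fell below the filter and was not tested. The main effect was 0.76 ± 0.30 (adjusted p = 0.39), with a 95% interval of 0.11 to 1.41 that lies below the estimate from the bright probe set, and it was 0.50 without control 2 and 1.03 without control 1. Its mean level stood at the 41.9th percentile of the array, just above the filter at the 40th. Its group means were 5.82 with the combination and 5.87 under rosiglitazone alone, above the filter value of 5.38. Those under carboplatin alone (4.98) and in control (5.19) lay below it. The probe set was therefore tested only through the groups where it was high, and it is no separate test of the rise.

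**Figure D1:**
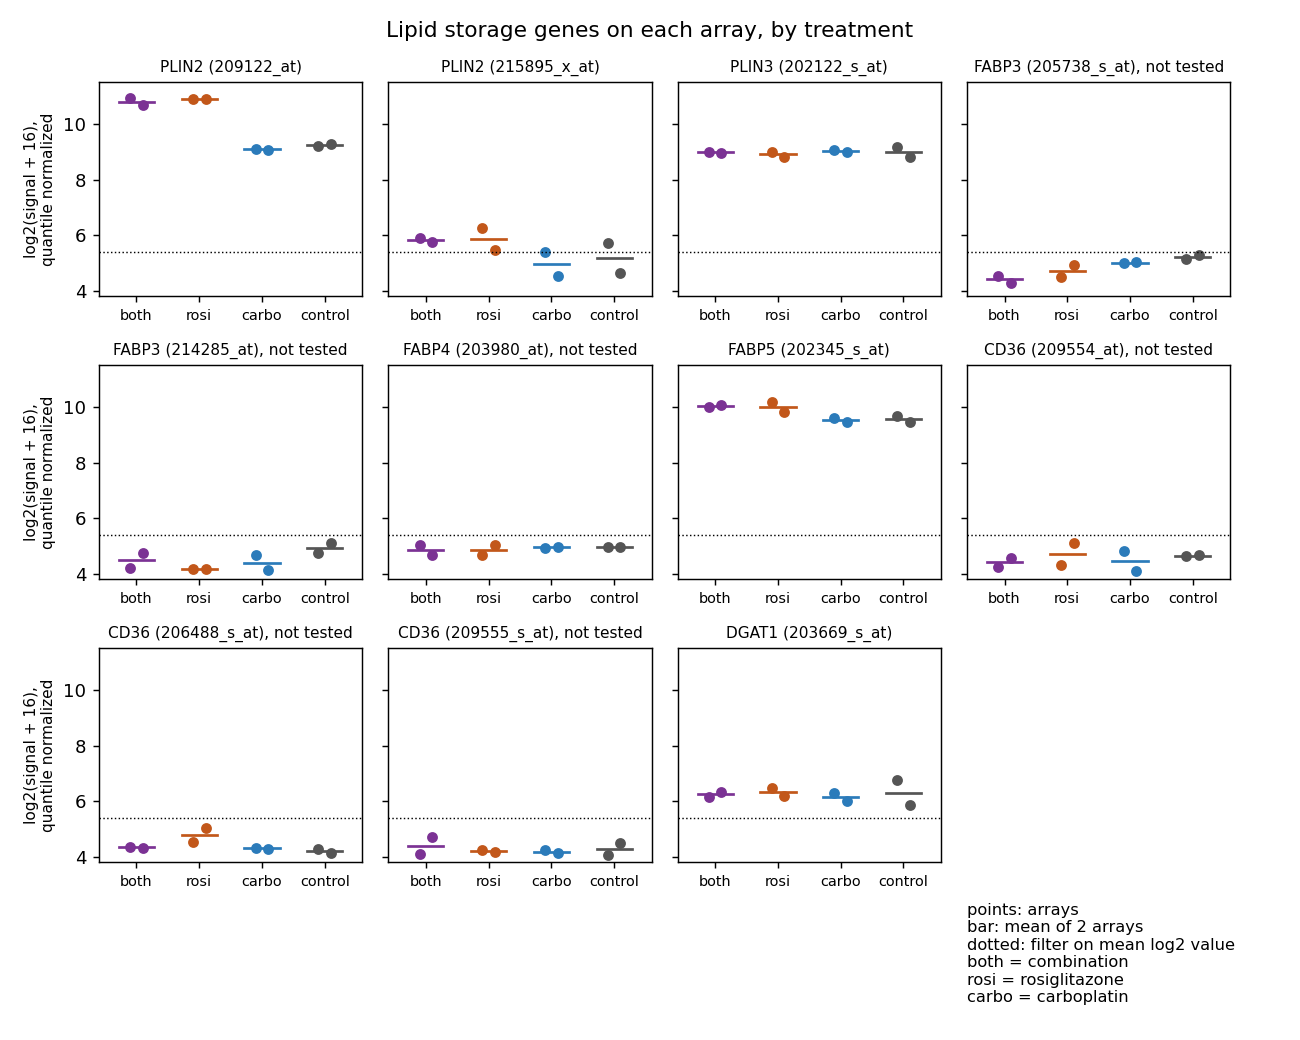
Quantile normalized log2(signal + 16) of the 11 probe sets of the 7 genes on each array, in the combination (both), rosiglitazone (rosi), carboplatin (carbo) and control groups. Points are arrays, bars the mean of 2 arrays, and the dotted line the filter at a mean of 5.38. The bright PLIN2 probe set separates into a high level with rosiglitazone (10.67 to 10.93) and a low level without it (9.05 to 9.28), while the probe sets of FABP3, FABP4 and CD36 lie below the line on every array.

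PLIN3 showed no detectable difference between the treatments. Its log2 values were 9.01 and 8.95 with the combination, 9.004 and 8.81 under rosiglitazone alone, 9.06 and 8.98 under carboplatin alone and 9.16 and 8.80 in control. The 2 control arrays were the highest and the lowest of the 8, so every other group lies inside the control range. The rosiglitazone main effect was -0.06 ± 0.10 (95% interval -0.29 to 0.18, adjusted p = 0.93), and the differences of the 5 pairwise comparisons ran from -0.07 to 0.07. The intervals of PLIN2 and PLIN3 for the main effect (1.51 to 1.87 against -0.29 to 0.18) do not overlap, though the difference between the genes was not itself tested. The direction of the PLIN3 values depended on the scaling, the main effect being 0.14 with the deposited scaling.

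FABP5, the epidermal type of fatty acid binding protein and a carrier of fatty acids to PPARδ, was higher on every rosiglitazone-treated array but did not pass the threshold. Its log2 values were 10.00 and 10.09 with the combination, 10.19 and 9.83 under rosiglitazone alone, 9.60 and 9.46 under carboplatin alone and 9.67 and 9.46 in control. The 4 arrays with rosiglitazone lay above the 4 without it on this scale. In deposited signal they overlapped, since combination 1 was at 836 and control 1 at 869. The main effect was 0.48 ± 0.10, a fold of 1.39 (unadjusted p = 0.000566, adjusted p = 0.0571). An unadjusted p under 0.05 was reached by 9.96% of all tested probe sets. Rosiglitazone against control gave 0.44 ± 0.14 (adjusted p = 0.30) and combination against carboplatin 0.51 ± 0.14 (adjusted p = 0.36). The first of these was 0.26 without rosiglitazone 1 and 0.62 without rosiglitazone 2. Carboplatin against control was -0.03 ± 0.14 and the interaction 0.07 ± 0.20 (95% interval -0.37 to 0.51). The main effect passed with the stricter filter at the 60th percentile (adjusted p = 0.0428), with the replicate number as a block (adjusted p = 0.0485) and without rosiglitazone 2 (adjusted p = 0.0338). RefSeq names 15 FABP5 pseudogenes, and what share of the signal comes from transcripts of such copies was not tested.

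DGAT1, which makes the last step from diglyceride to triglyceride, did not differ detectably and was measured with little precision. Its deposited signals were 46.5 and 79.5 with the combination, 75.3 and 71.2 under rosiglitazone alone, 52.9 and 50.1 under carboplatin alone and 98.6 and 35.0 in control. Here too the 2 control arrays were the highest and the lowest of all. The main effect of rosiglitazone was 0.06 ± 0.20 on the log2 scale, and its 95% interval of -0.39 to 0.50 leaves room for a moderate change either way. Its sign turned, to -0.05, once the brightness of each array entered the fit.

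**Figure D2:**
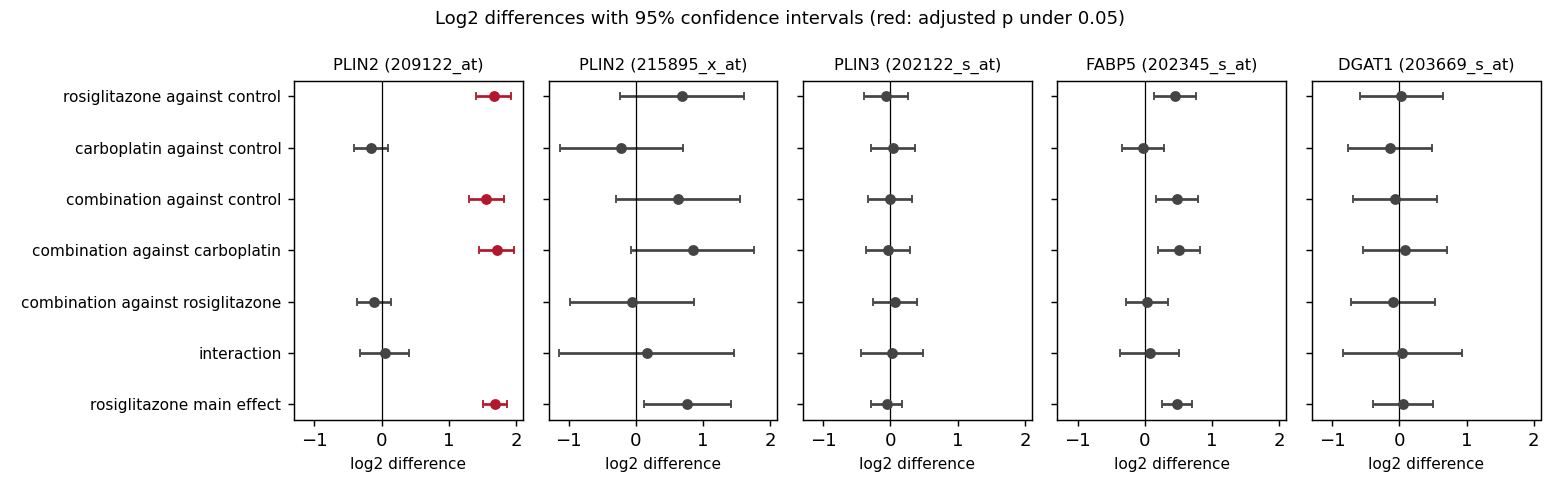
Log2 differences of the 5 tested probe sets in the 7 comparisons, with 95% confidence intervals from limma; each axis is in log2 units and red marks an adjusted p under 0.05. The bright PLIN2 probe set was called in the 4 comparisons that contain rosiglitazone against its absence, at 1.56 to 1.71, and no other tested probe set was called in any.

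Over the 5 tested probe sets, 1 was called for rosiglitazone against control (0.36% of all tested probe sets were), 1 for combination against control (0.225%), 1 for combination against carboplatin (0.157%) and 1 for the main effect (0.885%, with 0.667% called as rises). In each case it was PLIN2, as a rise. None was called for carboplatin against control (0.015%), combination against rosiglitazone (0.0225%) or the interaction (0%) by limma, and none of these 15 values reached an unadjusted p under 0.05. Since 2 of the 5 probe sets read 1 gene and these passed a filter on brightness, the counts describe the probe sets that could be tested and not the 7 genes.

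FABP4, CD36 and FABP3 were near the floor of the measurement. FABP4, the fatty acid binding protein of fat cells, had deposited signals of 15.0 and 10.5 with the combination, 10.99 and 20.6 under rosiglitazone alone, 12.5 and 14.9 under carboplatin alone and 16.1 and 13.1 in control. No group stood apart, and the probe set's mean level was at the 28.1th percentile of the array. The signal that corresponds to the filter is 25.6. With no filter the main effect of FABP4 was -0.10 ± 0.16 (adjusted p = 0.93 over 22215 probe sets).

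The 3 CD36 probe sets had deposited signals between 0.879 and 23.2. Probe set 206488_s_at was at 4.09 and 4.41 with the combination, 7.87 and 20.5 under rosiglitazone alone, 3.40 and 3.32 under carboplatin alone and 3.72 and 1.51 in control. The 4 rosiglitazone-treated arrays were thus above the 4 others, those of the combination by less than 1 unit of signal. Without a filter its main effect was 0.30 ± 0.13 and rosiglitazone against control 0.56 ± 0.18, neither called (adjusted p = 0.58 and 0.44). The other CD36 probe sets showed no such order: the main effect without a filter was 0.01 ± 0.22 for 209554_at and 0.08 ± 0.15 for 209555_s_at.

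FABP3 is the heart type of fatty acid binding protein. Probe set 205738_s_at had deposited signals of 6.44 and 3.82 with the combination, 7.52 and 17.5 under rosiglitazone alone, 14.0 and 15.8 under carboplatin alone and 19.9 and 19.7 in control. On the log2 scale all 4 rosiglitazone-treated arrays (4.29 to 4.92) were below the 4 others (5.01 to 5.30). In deposited signal, rosiglitazone 2 lay above both carboplatin arrays. The second FABP3 probe set, 214285_at, was at 2.41 and 12.1 with the combination, 2.08 and 2.54 under rosiglitazone alone, 8.23 and 1.45 under carboplatin alone and 10.8 and 16.2 in control. There rosiglitazone was below control, but combination and carboplatin overlapped. Without a filter the main effect was -0.56 ± 0.15 for the first (adjusted p = 0.33) and -0.33 ± 0.17 for the second (adjusted p = 0.69).

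Whether these 3 genes are expressed at all cannot be read from the table used here, which holds no detection calls. Among the 8877 probe sets below the filter, 1.41% had all 4 rosiglitazone-treated arrays above the 4 others and 1.66% had them all below. Of the 6 dim probe sets described here, 1 was above (a CD36 probe set) and 1 below (an FABP3 probe set). Among the 13338 tested probe sets the shares were 3.2% above and 2.95% below, and of the 5 tested here 2 were above (PLIN2 and FABP5) and 0 below.

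The rest of the storage pathway was described with 5 lists of 82 genes, of which 57 were on the array under a single symbol and 38 were tested, each by its brightest probe set. For the rosiglitazone main effect 22 of the 38 genes were higher, 2 were called as rises (PLIN2 and DBI) and 0 as falls. Over all 8030 genes tested 0.785% were called as rises and 0.286% as falls, and 45.6% were higher. The median difference was 0.05 over the 38 genes and -0.02 over all genes. All 4 rosiglitazone-treated arrays lay above the 4 others for 7 of the 38 genes, against 3.54% of all genes tested, and below them for 0 (3.5%). The lists were chosen with earlier results of these data known and hold PLIN2 and FABP5. These counts are therefore a description and no test of the pathway.

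Among droplet coats and their regulators 10 genes were tested and 6 were higher, with a median of 0.13. PLIN2 aside, the smallest p-values belonged to SPART, which encodes spartin, a protein of droplet turnover (0.37 ± 0.18, adjusted p = 0.55, with 0.22 without carboplatin 1 and 0.52 without carboplatin 2), and HILPDA, an inhibitor of the triglyceride lipase ATGL (0.21 ± 0.10, adjusted p = 0.56). CIDEC, a droplet fusion protein of fat cells, was at 0.20 ± 0.14. None of the other 9 tested genes of this list was called.

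In the list of fatty acid and retinoid binding proteins 4 of 13 genes were tested and 3 were higher. DBI, which encodes the acyl-CoA binding protein and is a carrier of activated fatty acids, rose in the main effect by 0.51 ± 0.09 (adjusted p = 0.0184). Its log2 values were 11.06 and 10.98 with the combination, 10.85 and 10.93 under rosiglitazone alone, 10.54 and 10.38 under carboplatin alone and 10.58 and 10.25 in control, so the arrays with rosiglitazone lay above those without. Its other 2 probe sets were also higher, at 0.29 ± 0.09 and 0.33 ± 0.09, without passing. On the one at 0.29 the arrays overlapped, rosiglitazone 2 (10.36) lying below carboplatin 1 (10.38). On the one at 0.33 they did not overlap. Each of these probe sets can also read other transcripts, by its suffix. The call of the first was kept in 6 of 17 alternatives, with adjusted p-values from 0.014 to 0.24. Leaving out 1 array ended it for control 2 (adjusted p = 0.0637), rosiglitazone 1 (0.0600), rosiglitazone 2 (0.0716), carboplatin 2 (0.0830), combination 1 (0.0779) and combination 2 (0.0530). CRABP2, a retinoic acid carrier, was at 0.26 ± 0.21, with 0.035 without carboplatin 1 and 0.47 without carboplatin 2.

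Of the fatty acid uptake and activation genes 8 were tested, 5 were higher and none was called. VLDLR, a receptor that takes up triglyceride-rich lipoproteins and a PPARγ target in fat cells, had log2 values of 7.25 and 7.19 with the combination, 7.40 and 7.24 under rosiglitazone alone, 6.67 and 6.71 under carboplatin alone and 6.95 and 6.76 in control. The arrays with rosiglitazone were all above those without, and the main effect was 0.50 ± 0.12 (adjusted p = 0.104). The caveola protein gene CAV1 was at 0.22 ± 0.08 (adjusted p = 0.38) and, by its other probe set, 0.16 ± 0.07, the first being 0.14 without control 1. ACSL1, a long-chain acyl-CoA synthetase, was at -0.14 ± 0.16 by its brightest probe set and 0.22 ± 0.14 by the other. The first was -0.0027 without rosiglitazone 1 and -0.28 without rosiglitazone 2. The median of the list was 0.05.

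Of the triglyceride and sterol ester synthesis genes 7 were tested, 5 were higher and none was called, with a median of 0.06. AGPAT2, the acyltransferase that makes phosphatidic acid, was at 0.41 ± 0.12 (adjusted p = 0.24) by its brightest probe set and at 0.70 ± 0.15 (adjusted p = 0.0705) by the other. On both AGPAT2 probe sets the 4 arrays with rosiglitazone lay above the 4 without. SOAT1, which esterifies cholesterol for storage, was at 0.41 ± 0.18 (adjusted p = 0.48). LPIN1, the phosphatidate phosphatase lipin, had 3 probe sets at 0.27 ± 0.12, 0.35 ± 0.17 and 0.46 ± 0.12, none called. The second of these means joins values of opposite sign, 0.93 ± 0.24 for rosiglitazone against control and -0.24 ± 0.24 for combination against carboplatin, with an interaction of -1.17 ± 0.34 (unadjusted p = 0.00543, adjusted p = 0.82). For the other LPIN1 probe sets both comparisons were positive, and their interactions were -0.01 ± 0.24 and 0.04 ± 0.24.

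Of the lipolysis genes 9 were tested and 3 were higher, with a median of -0.02 and none called. ABHD6, a monoglyceride lipase, was at 0.33 ± 0.11 (adjusted p = 0.31) by its brightest probe set, on which all 4 arrays with rosiglitazone lay above the others. Its other tested probe sets were at 0.36 ± 0.20 and 0.54 ± 0.18, neither called. On both of these the arrays overlapped, combination 1 (6.19 and 6.44) lying below control 2 (6.45 and 6.58). FAF2, a droplet protein that restrains ATGL, was at 0.18 ± 0.10 by its brightest probe set and -0.14 ± 0.22 by the other, and MGLL, the main monoglyceride lipase, at -0.13 ± 0.09. PNPLA2, the gene of ATGL itself, was at -0.03 ± 0.15.

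**Figure D3:**
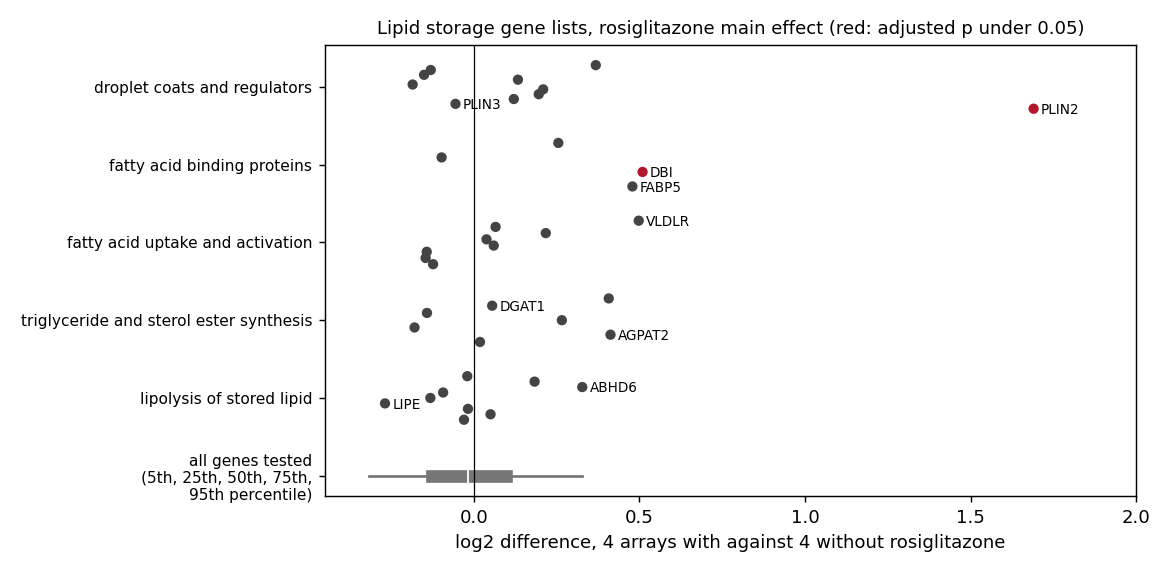
Rosiglitazone main effect, as a log2 difference of 4 arrays with against 4 without the drug, for each tested gene of the 5 lists; red marks an adjusted p under 0.05. The bar at the bottom gives all 8030 genes tested (thin line 5th to 95th percentile, -0.32 to 0.33; thick line 25th to 75th, -0.13 to 0.10). By the brightest probe set of each gene, PLIN2 at 1.69 stands far from the other genes of every list, which lie between -0.27 and 0.51. Dimmer probe sets, not drawn, were at 0.70 for AGPAT2, 0.54 for ABHD6 and 0.76 for PLIN2 itself.

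For carboplatin against control none of the 38 genes was called and the median was -0.01, against -0.02 over all genes. For combination against rosiglitazone none was called either, with a median of 0.02 against 0.01. For rosiglitazone against control, combination against control and combination against carboplatin the 1 called gene of the 38 was PLIN2. KRT7, a keratin gene of the epithelial marker list, also rose in the main effect, by 0.56 ± 0.09 (adjusted p = 0.0138). The summed signal of that list ran from 11746 to 11817 with the combination, 10450 to 11605 with rosiglitazone, 9816 to 9965 with carboplatin and 10513 to 10800 in control. For the adipocyte list the same sum ran from 128 to 145 with the combination and 129 to 138 with rosiglitazone. It ran from 119 to 138 with carboplatin and 127 to 144 in control. The part of cell composition in the results was not tested.

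The genes most like PLIN2 were taken as the 5 of highest Pearson correlation with its bright probe set over the 8 arrays, among 8029 other genes. They were DLC1, a GTPase-activating protein gene (r = 0.996), ANGPTL4, a secreted inhibitor of lipoprotein lipase (0.995), ATP2B4, a calcium pump gene (0.994), FA2H, a fatty acid hydroxylase (0.992), and POR, the electron donor of cytochrome P450 enzymes (0.979). These correlations describe 8 arrays of 4 treatments that share 1 normalization. Any gene with a steady higher level with rosiglitazone and a steady lower one without it correlates highly. The main effects of the 5 were 1.65, 2.81, 1.16, 1.47 and 0.82 in that order. Among the lipid storage lists the closest were VLDLR (r = 0.948, rank 31), ABHD6 (0.941, rank 35), DBI (0.906, rank 78) and FABP5 (0.890, rank 106).

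**Figure D4:**
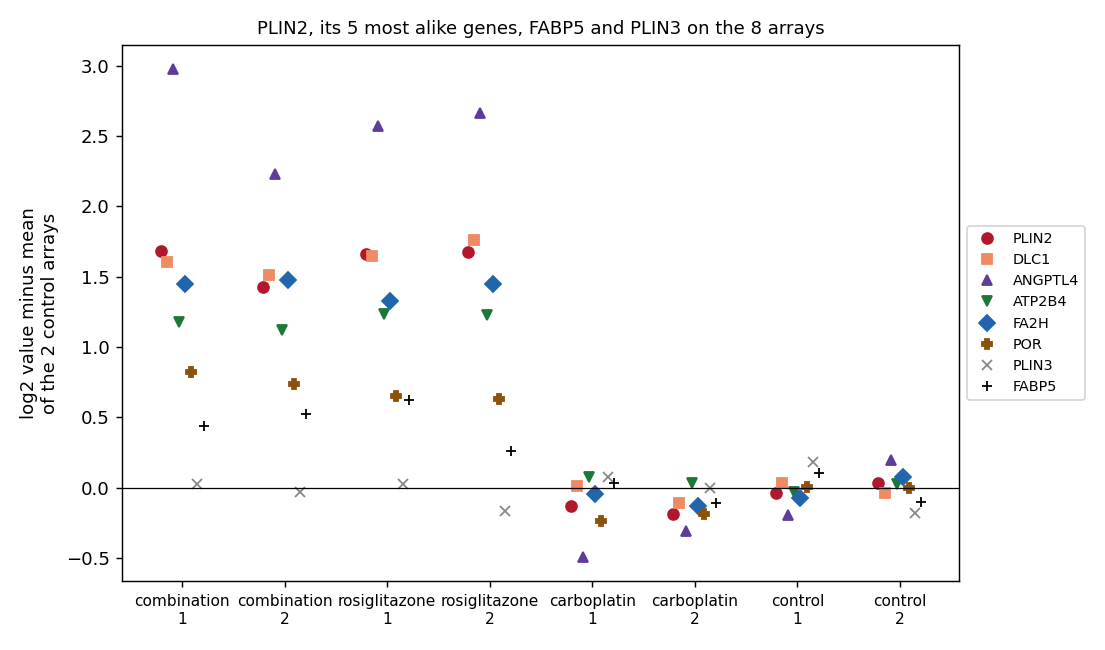
Log2 value of each array minus the mean of the 2 control arrays, for PLIN2, the 5 genes of highest correlation with it, FABP5 and PLIN3; the arrays stand along the x axis by group. PLIN2 and the 5 genes sit high on the 4 arrays with rosiglitazone and near or below 0 on the 4 without, while PLIN3 stays near 0 on all 8.

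The PLIN2 calls did not rest on 1 array or 1 setting among those run. The main effect was called in all 17 alternatives, with values from 1.61 to 1.89, and lay between 1.62 and 1.76 when 1 array was left out. Rosiglitazone against control and combination against carboplatin were each called in all 18 alternatives, at 1.59 to 1.90 and 1.58 to 1.88. With array brightness as a covariate the main effect of PLIN2 was 1.76 ± 0.09.

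**Figure D5:**
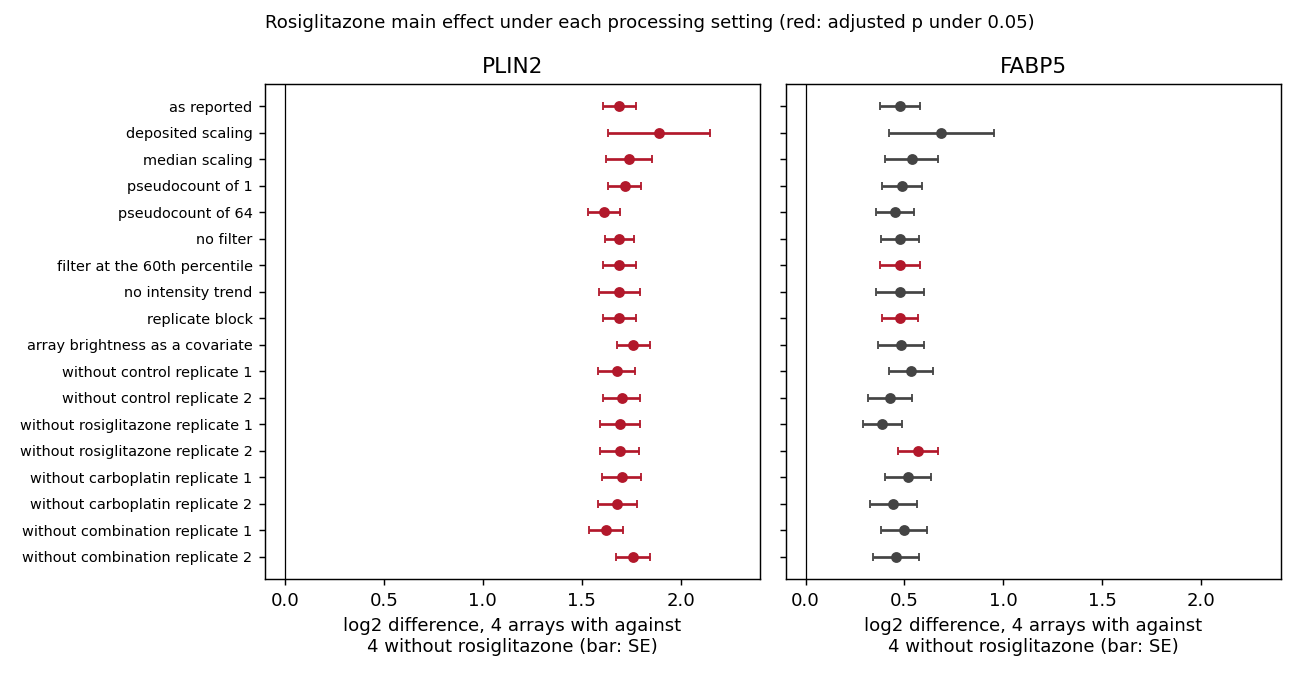
Rosiglitazone main effect (log2 difference, bars: SE) of PLIN2 and FABP5 as reported and under each of 17 alternative settings; red marks an adjusted p under 0.05. PLIN2 is red in every setting at 1.61 to 1.89, and FABP5 in 3 of 17 at 0.39 to 0.69 over all settings.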

How the data were processed

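Per the labels' protocols, RNA was copied from an oligo-dT primer, labelled with biotin and hybridised to 8 arrays. The deposited values are linear intensity signals, 1 per probe set, from 0.032 to 14941. How the signals were summarised, background-corrected and scaled was not given in the sources used here. Array medians of log2(signal + 16) spanned 0.43, so the log2 values were quantile normalized. The 68 control probe sets and those with a mean below the 40th percentile were left out, which left 13338. A linear model with 4 group coefficients was fitted (limma 3.58.1, R 4.3.3, lmFit, and eBayes with an intensity trend), with 4 residual and 7.1 prior degrees of freedom. All 7 contrasts were two-sided. Of 19071 probe sets with 1 symbol, 19059 were found by Entrez identifier in RefSeq (GRCh38.p14), and 0 symbols changed.

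The members, the lists and the markers were chosen with earlier results of these data known. Every member probe set is described. A further list gene is named if a probe set of it passed in any contrast or if it had 1 of the 3 smallest p-values of its list for the main effect. CIDEC, LIPE, LPL and PNPLA2 were named after their values were seen. The labels do not say that a number marks a shared batch, so the numbers were not taken to pair arrays. Deviations of same-numbered arrays from their group means correlated at -0.11 to 0.25, negative for pairs with control and positive for the others. With 2 arrays per group the deviations mirror each other, so these values cannot decide whether a batch was shared. Arrays were few, which limits the precision of every value. Alternatives were 2 other scalings, 2 pseudocounts, 2 filters, no trend, only the groups compared, the replicate block, array brightness as a covariate, and each array left out.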

Additional observations from a re-analysis of the deposited data

How the results depend on the processing

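Small numbers of arrays and dim signals limit what can be said: FABP3, FABP4 and CD36 were below the filter, and the intervals of DGAT1 and the second PLIN2 probe set are wide. Where 1 array is left out, the lone array of its group is assumed to vary like the others.

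The 4 PLIN2 calls held in every alternative run. The number of called probe sets of the 7 genes stayed at 1 or 0 as reported in every contrast but the main effect, where it was 2 instead of 1 with the filter at the 60th percentile and with the replicate block, and 1 to 2 when 1 array was left out (2 without rosiglitazone 2), FABP5 being the second. The replicate block changed no other call of these genes; same-numbered arrays share only a number in the labels. Counts over all probe sets moved more: 118 for the main effect (36 to 142 over the alternatives), 48 for rosiglitazone against control (3 to 70), 30 for combination against control (5 to 46), 21 for combination against carboplatin (4 to 27), 3 for combination against rosiglitazone (0 to 3), 2 for carboplatin against control (0 to 2) and 0 for the interaction (0 to 3).

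Signs changed only for values that were not called, and the cause was not tested. The PLIN2 interaction was -0.012 with the deposited scaling and -0.020 with array brightness as a covariate, and -0.079 to 0.17 when 1 array was left out. PLIN2 in combination against rosiglitazone was -0.24 to 0.016 when 1 array was left out. With the deposited scaling PLIN3 was 0.14 for the main effect, 0.17 for rosiglitazone against control, -0.040 for carboplatin against control and 0.12 for combination against carboplatin, and with median scaling -0.045 and 0.041 for the last pair. With that deposited scaling ACSL1 was 0.044 and MGLL 0.060 for the main effect. DGAT1 with the brightness covariate was -0.053 for the main effect and -0.13 for rosiglitazone against control. Leaving out 1 array gave PLIN3 -0.15 to 0.035 for the main effect, -0.25 to 0.11 for rosiglitazone against control and -0.14 to 0.22 for carboplatin against control. It gave DGAT1 -0.16 to 0.27 for the main effect, -0.41 to 0.47 for rosiglitazone against control, -0.58 to 0.30 for carboplatin against control and -0.063 to 0.22 for combination against carboplatin. For carboplatin against control it gave FABP5 -0.14 to 0.070 and the second PLIN2 probe set -0.77 to 0.33.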
